A study of Homo sapiens with 9 samples.

Results

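The collagen genes of ACC-MESO-1, an established line of malignant pleural mesothelioma, were followed across cells carrying a hairpin against LSD1 or a control hairpin. LSD1 is a histone demethylase that acts in repressor complexes. Members were all genes whose symbol in the array annotation had the form COL, a number, A and a number, with the transcript cluster of highest mean signal standing for each gene. This gave 41 genes of the 17687 named on the array, each with 1 cluster. COL3A1, COL7A1 and COL17A1 had no cluster named for them alone in that annotation and were not analysed. Expression was measured on 9 Clariom S arrays, in cells infected with shLSD1 #1 (replicates 4 to 6), shLSD1 #2 (replicates 7 to 9) or a control shRNA (replicates 1 to 3). All groups share the line and a serum-containing medium, and the model is a single tumour line grown without stroma. The labels do not say whether replicates were separate cultures, and p-values therefore measure the spread between arrays, which may be technical. The hairpins share their 3 control arrays. LSD1 itself is not reported here, so the knockdown was not checked.

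Collagens are extracellular proteins in which 3 chains wind into a triple helix. Fibrillar collagens build the tension-bearing fibres of connective tissue, network collagens form the sheet of the basement membrane, and beaded-filament collagen VI lies at the border between cells and the fibrillar matrix. FACIT collagens (fibril-associated collagens with interrupted triple helices) decorate fibres. Mesothelial cells rest on a basement membrane, and mesothelioma can be rich in matrix that tumour cells and fibroblasts lay down together.

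Few of the collagen genes analysed were measurable in this line, and those that were did not move together. Values are log2 signals, and a signal counted as above background when it passed a floor set on the same array, the 95th percentile of its 612 negative control probe sets, which lay between 6.93 and 7.54. By that measure 7 collagen genes were above background on all 9 arrays, 5 on some arrays and 29 on none. The share on all arrays was 17.1% of collagen genes, against 39.9% of all 21448 clusters. COL6A1 and COL6A2 fell with both hairpins, COL1A2 rose with both, COL12A1 rose with shLSD1 #1 and COL5A1 fell with shLSD1 #2. COL6A3 also passed the test with shLSD1 #1, at a signal far below background.

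By limma with Benjamini-Hochberg adjustment over all clusters and a threshold of 0.05, 5 of the 41 genes were called with shLSD1 #1, 3 higher and 2 lower. The call rate over all clusters was 15.8%, with 7.85% higher and 7.94% lower. With shLSD1 #2, 4 collagen genes were called, 1 higher and 3 lower, where the rate over all clusters was 13.2%, with 6.56% higher and 6.63% lower. Both collagen counts lie near these backgrounds. The 3 genes called with both hairpins moved the same way with each, beside 10.4% of all clusters, and the hairpins share their controls. Among clusters above background on all 9 arrays the call rate was 28.6% with shLSD1 #1 and 24% with shLSD1 #2, and 4 of the 7 collagen genes so measured were called with each. The median log2 change of the 41 genes was 0.06 with shLSD1 #1 and 0.01 with shLSD1 #2, beside 0.03 and 0.02 over all clusters. Leaving out shLSD1 #1 replicate 5 raised the shLSD1 #1 count to 8, and leaving out shLSD1 #2 replicate 7 or 8 lowered the shLSD1 #2 count to 2.

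The arrays also differed in their spike-ins, 8 probe sets for foreign sequences used as array controls. Their mean log2 signal was 9.07 to 9.20 on shLSD1 #1 arrays, 9.23 to 9.59 on shLSD1 #2 arrays and 9.49 to 9.66 on control arrays, and the widest gap set the shLSD1 #1 arrays and shLSD1 #2 replicate 8 below the others. With this class as a covariate the class effect comes from shLSD1 #2 arrays alone, as the difference of replicate 8 from the other arrays of that hairpin. Each shLSD1 #1 change of the fit is shifted by that difference, so it rests on replicate 8. In that fit 0 collagen genes were called with shLSD1 #1 by limma, 4 having an unadjusted p under 0.05, and 2 with shLSD1 #2, with 399 and 1940 calls over all clusters. Of the 8 mesothelial markers examined, MSLN (mesothelin) was above background on all 9 arrays, WT1 on all hairpin arrays and no control array, and CALB2, KRT5 and ITLN1 on none. All 5 endothelial, 4 leukocyte and 5 lung epithelial markers on the array were below background on all 9 arrays. Among 6 fibroblast markers, PDGFRB and THY1 were above background on all 9 arrays and DCN and PDGFRA on none. The fibroblast list summed to 48.98 to 49.25 log2 units on shLSD1 #1 arrays, 49.20 to 49.89 on shLSD1 #2 arrays and 49.54 to 50.24 on control arrays. These sums hide opposite moves. FAP, a surface protease of activated fibroblasts, fell by 2.00 and 2.01 log2 units with shLSD1 #1 and shLSD1 #2 (limma adjusted p = 0.000260 and 0.000261). It was above background on every control array but below it on most hairpin arrays, so the size of this fall is uncertain. The surface protein THY1 fell by 1.68 and 1.64 (limma adjusted p = 2.67e-05 and 2.88e-05). LUM, described with the matrix genes, rose with both hairpins, and the other 3 fibroblast markers were not called. Among mesothelial markers MSLN fell by 0.85 and 0.95, while WT1 rose by 0.84 and 0.75 and UPK3B by 1.33 and 1.34. UPK3B was below background on several arrays, among them control replicates 2 and 3 and shLSD1 #1 replicate 6. With such control signals below background, the sizes of the WT1 and UPK3B rises are uncertain. Over all clusters 15.8% were called with shLSD1 #1 and 13.2% with shLSD1 #2. Among the 8 mesothelial markers 2 were called higher, 1 lower and 5 not, with each hairpin. Among the 6 fibroblast markers 1 was called higher, 2 lower and 3 not. The part of these markers in the collagen changes was not tested. In bulk RNA, fewer cells of a type and less RNA per cell cannot be told apart.

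**Figure D1:**
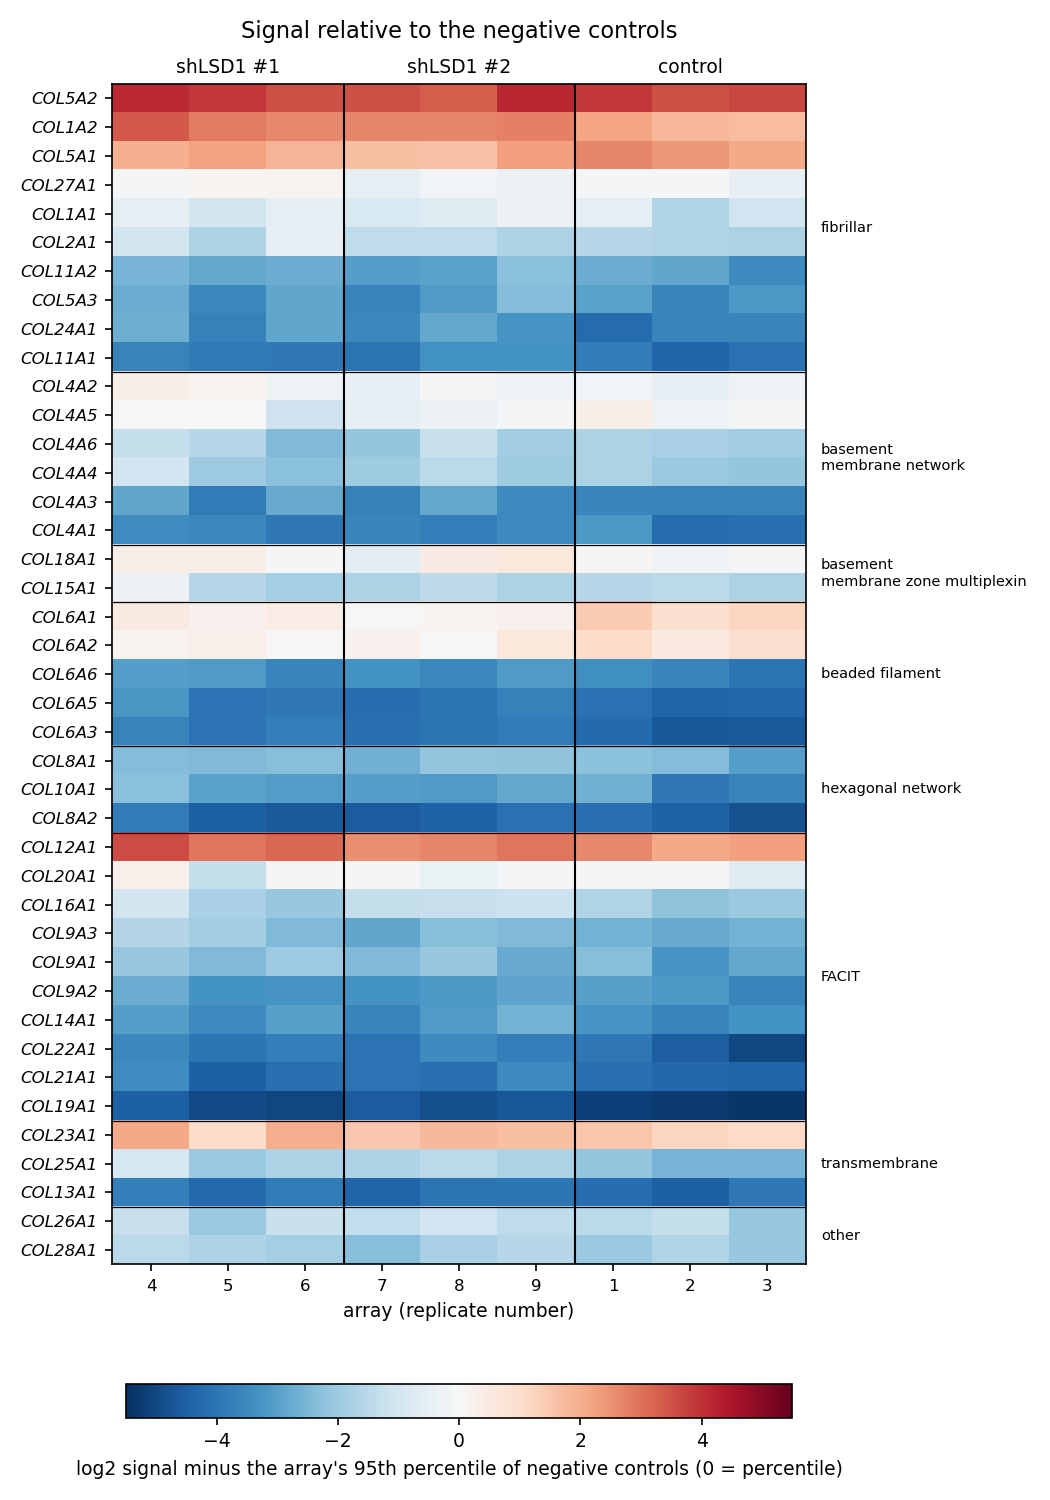
Signal of the 41 collagen genes (rows, ordered by collagen type) on the 9 arrays (columns, with replicate numbers), shown as log2 signal minus that array's 95th percentile of negative controls. Red is above that percentile and blue below it; 7 genes are red throughout, and 29 are blue throughout.

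Promoter sequence is shown for COL6A2, COL12A1 and COL5A1, which are called genes above background on all 9 arrays. Each line gives the 250 bases before the RefSeq transcription start on the gene's own strand, 5′ to 3′, in GRCh38.p14. The COL6A2 window lies at chr21:46097862-46098111 on the plus strand, the COL12A1 window at chr6:75206054-75206303 on the minus strand and the COL5A1 window at chr9:134641553-134641802 on the plus strand. Capitals mark the GC box (GGGCGG or CCGCCC), the CCAAT box (CCAAT or ATTGG) and the TATA box (TATAAA or TTTATA), searched on both strands.
COL6A2: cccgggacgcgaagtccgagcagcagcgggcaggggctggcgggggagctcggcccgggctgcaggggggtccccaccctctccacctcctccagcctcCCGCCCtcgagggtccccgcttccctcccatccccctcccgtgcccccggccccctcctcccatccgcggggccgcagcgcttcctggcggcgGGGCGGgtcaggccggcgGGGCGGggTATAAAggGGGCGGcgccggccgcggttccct
COL12A1: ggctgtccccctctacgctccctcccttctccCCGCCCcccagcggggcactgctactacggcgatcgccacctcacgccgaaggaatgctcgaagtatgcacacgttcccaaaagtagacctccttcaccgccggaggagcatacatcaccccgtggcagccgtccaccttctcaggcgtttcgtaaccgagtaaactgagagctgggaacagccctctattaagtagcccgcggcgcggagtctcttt
COL5A1: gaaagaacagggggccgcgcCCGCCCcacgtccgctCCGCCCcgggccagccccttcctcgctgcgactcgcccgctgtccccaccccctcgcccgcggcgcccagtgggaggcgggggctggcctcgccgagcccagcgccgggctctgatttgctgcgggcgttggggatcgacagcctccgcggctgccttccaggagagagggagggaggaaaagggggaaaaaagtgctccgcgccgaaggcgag

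The COL6A2 window held 4 GC boxes and 1 TATA box, the COL12A1 window 1 GC box, and the COL5A1 window 2 GC boxes. None of the 3 held a CCAAT box. RefSeq had 42 such windows for 30 of the 41 collagen genes, some genes having several. A GC box was present in 54.8% of collagen windows, against 42.6% of all 35116 windows, a CCAAT box in 26.2% against 32.0%, and a TATA box in 14.3% against 10.7%. Median GC content was 64.4% in collagen windows and 58.0% in all windows. These matches describe letters and not binding.

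Among beaded-filament collagens, COL6A1 and COL6A2, which encode the α1 and α2 chains of collagen VI, fell with both hairpins. COL6A1 had log2 signals of 7.42, 7.51 and 7.74 on shLSD1 #1 arrays, 7.37, 7.28 and 7.21 on shLSD1 #2 arrays, and 8.67, 8.44 and 8.65 on control arrays. All 6 hairpin arrays lay below all 3 control arrays. The log2 change was -1.03 ± 0.127 with shLSD1 #1 (SE, n = 3 per group, limma adjusted p = 0.000633), a 2.04-fold lower signal. With shLSD1 #2 it was -1.30 ± 0.127 (adjusted p = 0.000162), a 2.47-fold lower signal. COL6A1 stayed above background on every array, by 0.24 to 0.49 log2 units with shLSD1 #1, 0.02 to 0.23 with shLSD1 #2 and 0.89 to 1.46 in control, so hairpin signals ended close to the negative controls.

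COL6A2 had log2 signals of 7.10, 7.57 and 7.35 on shLSD1 #1 arrays, 7.58, 7.21 and 7.56 on shLSD1 #2 arrays, and 8.23, 8.06 and 8.37 on control arrays. Hairpin and control arrays again did not overlap. The log2 change was -0.88 ± 0.160 with shLSD1 #1 (SE, n = 3 per group, limma adjusted p = 0.00519) and -0.77 ± 0.160 with shLSD1 #2 (adjusted p = 0.0116), or 1.84-fold and 1.71-fold lower. COL6A2 exceeded the negative control percentile on every array, by 0.03 to 0.29 log2 units with shLSD1 #1. The margin was 0.03 to 0.59 with shLSD1 #2 and 0.52 to 1.02 in control, and these ranges overlapped. The shLSD1 #2 falls of COL6A1 and COL6A2 passed the threshold under all 18 alternatives. For this hairpin the spike-in covariate and omission of replicate 8 give the same fit, so not all 18 are separate checks. Among arrays of the high spike-in class, which also leave out replicate 8, COL6A1 changed by -1.30 (adjusted p = 0.00675) and COL6A2 by -0.65 (adjusted p = 0.04999). With the spike-in class as a covariate the shLSD1 #1 changes were -1.02 (adjusted p = 0.0833) and -0.52 (adjusted p = 0.413), so both shLSD1 #1 calls ended there.

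COL6A3, whose α3 chain joins α1 and α2 in the classical collagen VI molecule, stood at -4.65 to -3.68 log2 units relative to the negative control percentile across the 9 arrays. Its log2 signals were 3.25, 3.21 and 3.55 with shLSD1 #1, 3.21, 3.18 and 3.13 with shLSD1 #2, and 2.93, 2.89 and 2.82 in control. The hairpin arrays all exceeded the control arrays, but with both groups below background no fold is given. The shLSD1 #1 difference passed the test (adjusted p = 0.0302) and was lost under 8 of 16 alternatives, including omission of control replicate 1, 2 or 3 or of shLSD1 #1 replicate 4 or 6 (adjusted p = 0.0646, 0.0777, 0.0923, 0.0514 and 0.0909). COL6A5 and COL6A6, which encode alternative chains to α3, were below background on all 9 arrays and were not called.

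Position on the chromosome is shared by some members. In the RefSeq annotation of GRCh38.p14, 6 pairs of the collagen genes analysed follow each other with no other protein-coding gene between them. They include COL6A1 with COL6A2 on chromosome 21, COL4A1 with COL4A2 on 13 and COL4A3 with COL4A4 on 2. The others are COL4A5 with COL4A6 on X, COL6A5 with COL6A6 on 3 and COL9A1 with COL19A1 on 6. Pairs with COL3A1, COL7A1 or COL17A1 were not sought. COL6A1 and COL6A2 were the only such pair with both genes above background on all 9 arrays, and both fell. COL4A2 was above background on 3 arrays and its neighbour COL4A1 on none.

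Fibrillar collagens moved in both directions. COL1A2, the α2 chain of collagen I, had log2 signals of 10.30, 10.12 and 9.94 with shLSD1 #1, 10.04, 9.88 and 9.77 with shLSD1 #2, and 9.39, 9.38 and 9.15 in control. Each hairpin array was higher than each control array. The rise was 0.82 ± 0.137 with shLSD1 #1 (SE, n = 3 per group, limma adjusted p = 0.00344) and 0.59 ± 0.137 with shLSD1 #2 (adjusted p = 0.0199), or 1.76-fold and 1.51-fold. The shLSD1 #2 call was lost without control replicate 3, shLSD1 #2 replicate 7 or shLSD1 #2 replicate 8 (adjusted p = 0.0748, 0.0753 and 0.0558) and among the high spike-in arrays (0.0800), and the shLSD1 #1 call with the spike-in class as a covariate (0.167).

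COL1A1, the α1 chain that contributes most of collagen I, was below background on all 9 arrays, at -1.65 to -0.34 log2 units relative to the negative control percentile. Its log2 signals were 6.40, 6.28 and 6.82 with shLSD1 #1, 6.49, 6.48 and 6.64 with shLSD1 #2, and 6.72, 5.89 and 6.38 in control, and the groups overlapped. It was not called with either hairpin (adjusted p = 0.655 and 0.604). Signals of different probe sets have no common scale, so the COL1A1 to COL1A2 ratio was not computed.

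COL5A1 and COL5A2 encode chains of collagen V, which controls the diameter of collagen I fibrils. COL5A1 had log2 signals of 8.90, 9.48 and 9.20 with shLSD1 #1, 9.0, 8.80 and 9.22 with shLSD1 #2, and 9.91, 9.94 and 9.54 in control. No hairpin array reached the lowest control array. The log2 change with shLSD1 #2 was -0.78 ± 0.183 (SE, n = 3 per group, limma adjusted p = 0.0203), a 1.72-fold lower signal, and with shLSD1 #1 it was -0.60 ± 0.183 (adjusted p = 0.0543), short of the threshold. The shLSD1 #2 call was lost without control replicate 1 or 2 or shLSD1 #2 replicate 7 or 8 (adjusted p = 0.0721, 0.0760, 0.0605 and 0.0766). Both spike-in alternatives, the class as a covariate and the high spike-in arrays alone, also leave replicate 8 out of this change. The call was lost there too, at -0.68 in both (adjusted p = 0.0766 and 0.0781), so neither is a separate loss. In the covariate fit the shLSD1 #1 change was -0.29 (adjusted p = 0.754). The shLSD1 #1 change passed under 8 of 17 alternatives, among them the fits without control replicate 3 or shLSD1 #1 replicate 5 (adjusted p = 0.0453 and 0.0332).

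COL5A2 had log2 signals of 11.05, 11.15 and 10.83 with shLSD1 #1, 10.84, 10.51 and 11.13 with shLSD1 #2, and 11.13, 11.03 and 11.11 in control. Its groups overlapped, and the 95% interval of the log2 change was -0.45 to 0.29 with shLSD1 #1 and -0.63 to 0.10 with shLSD1 #2. The remaining 7 fibrillar genes analysed, COL1A1 among them, were not called. Of these COL27A1, a fibrillar collagen of cartilage, was above background on 2 shLSD1 #1 arrays and on no other array, and COL2A1, COL5A3, COL11A1, COL11A2 and COL24A1 were below background on all 9.

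**Figure D2:**
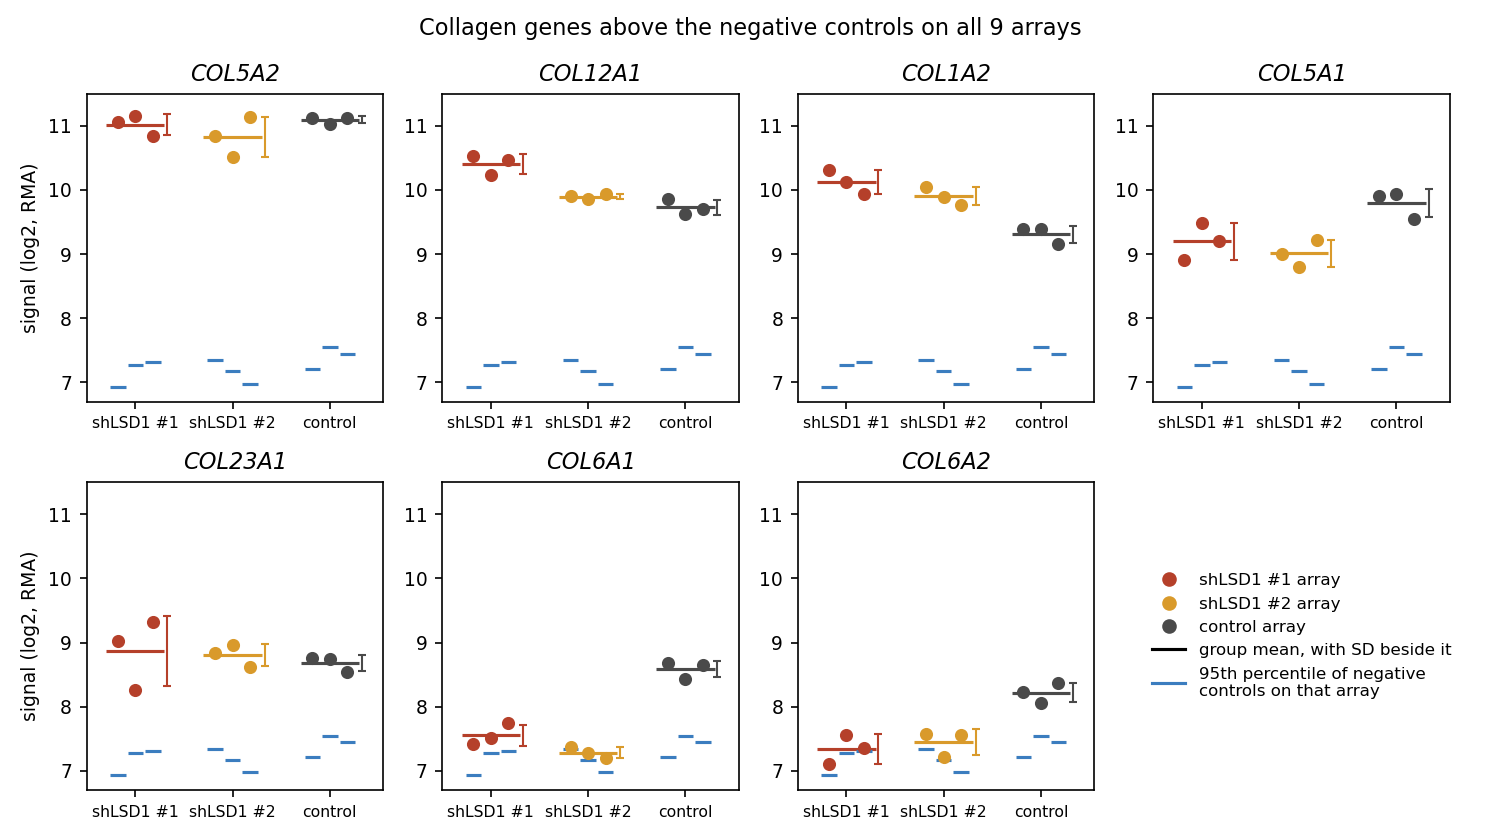
Log2 signal of the 7 collagen genes above background on all 9 arrays, by group. Points are arrays, horizontal bars are group means with the SD (n = 3) beside them, and blue ticks are each array's 95th percentile of negative controls. COL6A1 lies near the blue ticks on hairpin arrays and clear of them on control arrays. COL6A2 stands 0.03 to 0.59 log2 units above them on hairpin arrays and 0.52 to 1.02 on control arrays. COL1A2 is higher on all 6 hairpin arrays than on any control array.

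Basement membrane collagens were at or below background, and none was called with either hairpin. The network genes COL4A1 to COL4A6 encode the 6 chains of collagen IV. COL4A2 had log2 signals of 7.24, 7.44 and 7.03 with shLSD1 #1, 6.89, 7.24 and 6.72 with shLSD1 #2, and 7.07, 7.09 and 7.18 in control, with 2, 1 and 0 arrays above background. COL4A5 had 6.97, 7.25 and 6.16 with shLSD1 #1, 6.85, 6.87 and 6.91 with shLSD1 #2, and 7.60, 7.26 and 7.40 in control. All hairpin arrays lay below all control arrays for COL4A5, but its changes of -0.63 and -0.54 did not pass the test (adjusted p = 0.115 and 0.190). COL4A1, COL4A3, COL4A4 and COL4A6 were below background on all 9 arrays.

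The multiplexins COL15A1 and COL18A1 belong to the basement membrane zone, and the end of the COL18A1 protein is cleaved to endostatin, an inhibitor of vessel growth. COL18A1 had log2 signals of 7.31, 7.59 and 7.26 with shLSD1 #1, 6.77, 7.63 and 7.56 with shLSD1 #2, and 7.28, 7.34 and 7.36 in control. It exceeded background on 2, 2 and 1 arrays of these groups, which overlapped, and its changes were 0.06 and -0.01. COL15A1 was below background throughout.

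Of 10 FACIT genes, COL12A1 was above background on all 9 arrays. COL12A1, which encodes a large collagen bound to collagen I fibrils in tissues under load, had log2 signals of 10.53, 10.23 and 10.46 with shLSD1 #1, 9.90, 9.85 and 9.93 with shLSD1 #2, and 9.86, 9.63 and 9.70 in control. The shLSD1 #1 arrays lay above all others, and shLSD1 #2 overlapped control. The rise with shLSD1 #1 was 0.68 ± 0.120 (SE, n = 3 per group, limma adjusted p = 0.00460), or 1.6-fold, and the change with shLSD1 #2 was 0.16 ± 0.120 (adjusted p = 0.453). With the spike-in class as a covariate the shLSD1 #1 change was 0.74 ± 0.224, and the call ended (adjusted p = 0.158). COL20A1 was above background on 2 shLSD1 #1 arrays, no shLSD1 #2 array and 1 control array, and 8 FACIT genes were below background on all 9 arrays, all uncalled.

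Among the 3 transmembrane collagens analysed, COL23A1 was above background on all 9 arrays. Its log2 signals were 9.02, 8.26 and 9.32 with shLSD1 #1, 8.84, 8.95 and 8.62 with shLSD1 #2, and 8.76, 8.75 and 8.54 in control. The shLSD1 #1 arrays spanned the other groups, with an SD of 0.544 against 0.121 in control, and no change was called (adjusted p = 0.660 and 0.805). COL13A1 and COL25A1, the 3 hexagonal network genes COL8A1, COL8A2 and COL10A1, and COL26A1 and COL28A1 were below background on all 9 arrays and were not called. Means over the 9 arrays of the 29 genes below background throughout ran from 2.33 to 6.45 log2 units, with a median of 4.13. Their changes ran from -0.18 to 0.61 with shLSD1 #1 and from -0.26 to 0.53 with shLSD1 #2.

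Separation of the arrays was counted too. With shLSD1 #1, all 3 hairpin arrays were higher than all 3 control arrays for 8 collagen genes and lower for 4, where 18.2% and 16.8% of all clusters were so separated. With shLSD1 #2 the counts were 6 higher and 5 lower, beside 16.8% and 15.3% of all clusters.

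The hairpins were also compared with each other. By limma 0 of the 41 genes passed after adjustment (lowest adjusted p = 0.479), as did 0% of all clusters. Before adjustment 2 collagen genes had p under 0.05, beside 7.87% of all clusters. One of the pair was COL12A1, whose log2 signal was higher with shLSD1 #1 than with shLSD1 #2 by 0.51, with a 95% interval of 0.24 to 0.78 (unadjusted p = 0.00180). The other was COL9A3, a cartilage FACIT below background on all 9 arrays. For 40 of the 41 genes the 95% interval of the difference between hairpins lay within 1 log2 unit of 0. For COL6A1 it ran from -0.01 to 0.56, for COL6A2 from -0.47 to 0.25, for COL1A2 from -0.08 to 0.53 and for COL5A1 from -0.23 to 0.60.

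**Figure D3:**
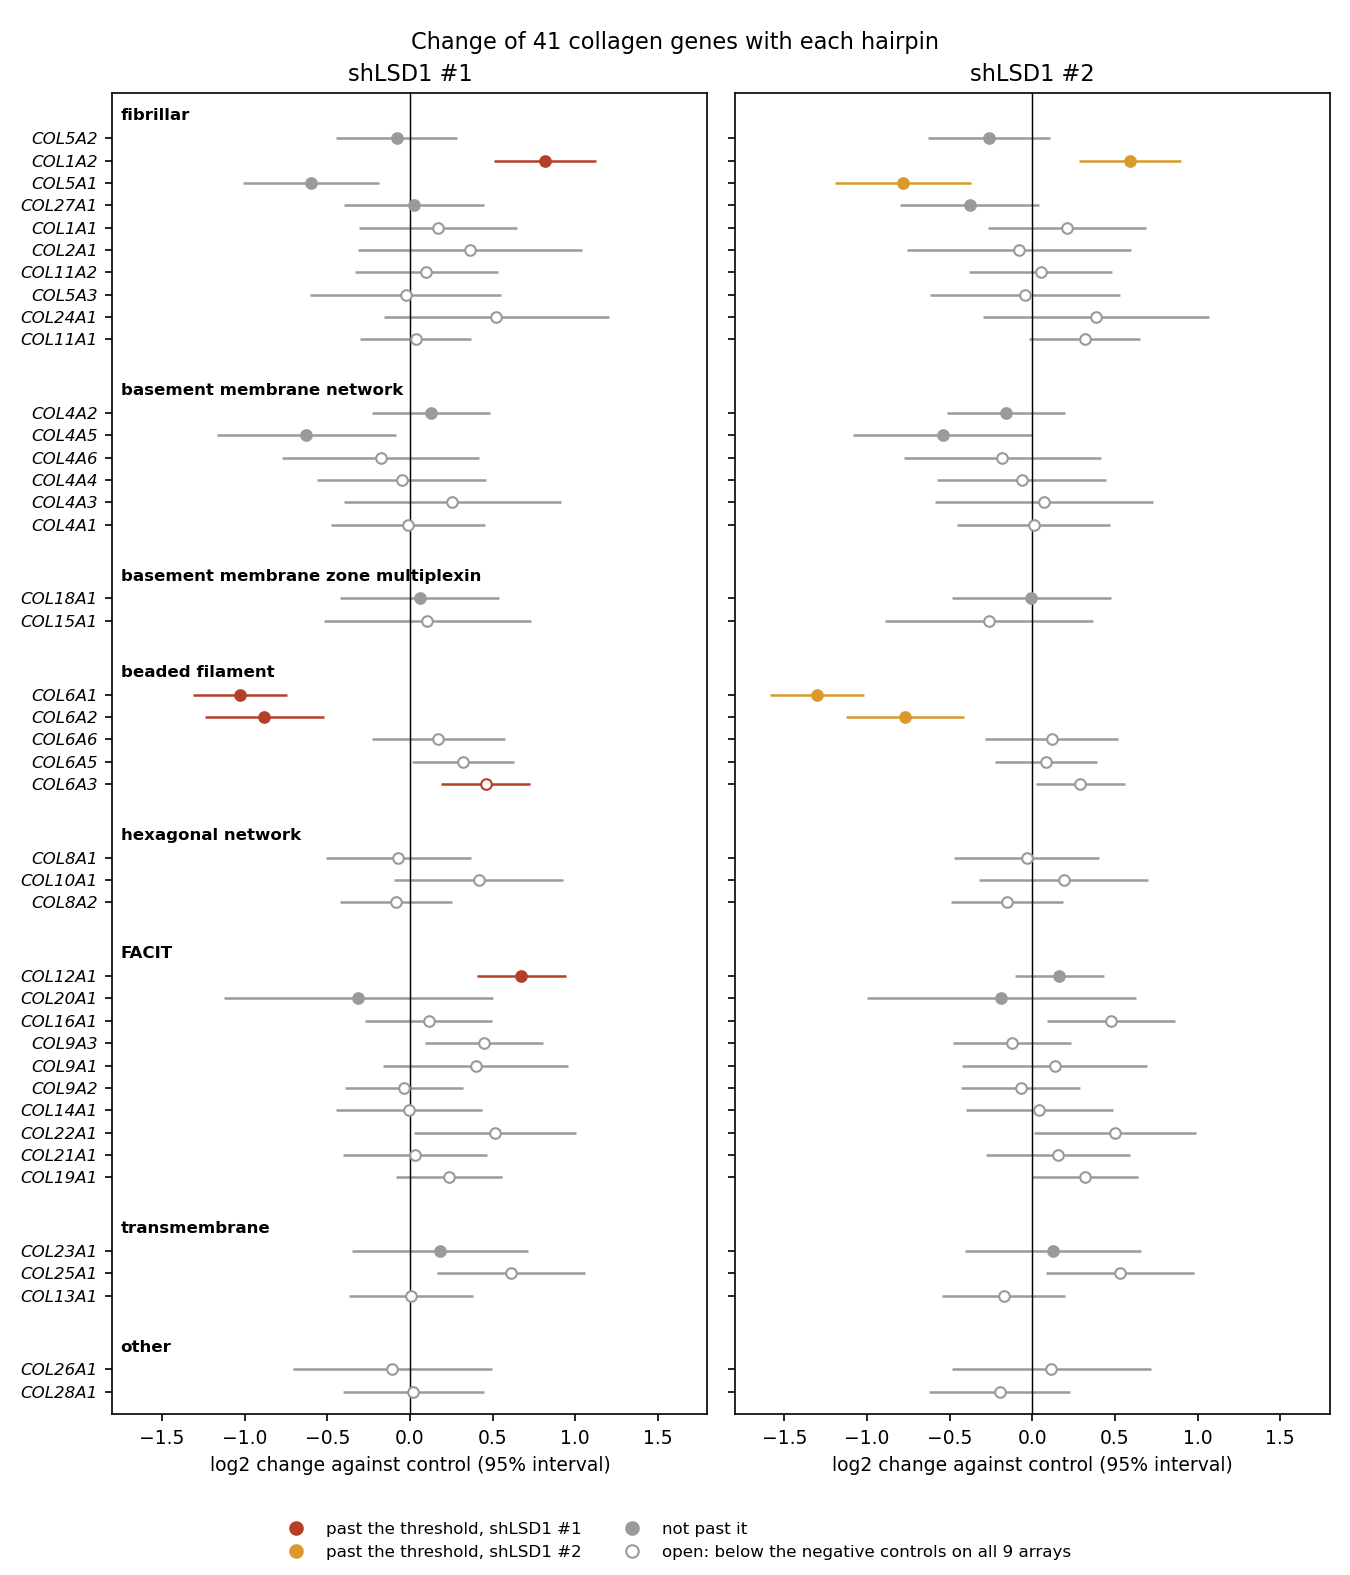
Log2 change against control for each of the 41 collagen genes with shLSD1 #1 (left) and shLSD1 #2 (right), with 95% intervals from limma. Coloured points passed the adjusted threshold, and open points mark genes below background on all 9 arrays; the called genes other than COL6A3 are filled.

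Genes that make, bind and remove collagen were read beside the collagens, from lists of their known roles. In the maturation list, which covers hydroxylation, folding, export and trimming of procollagen, 8 of 28 genes on the array fell and 2 rose with each hairpin, and 18 did not pass. Over all clusters 15.8% were called with shLSD1 #1 and 13.2% with shLSD1 #2, and over clusters above background on all 9 arrays 28.6% and 24%. The list median was -0.30 with shLSD1 #1 and -0.24 with shLSD1 #2, beside 0.03 and 0.02 over all clusters. In this list 21 of the 28 genes were above background on all 9 arrays. SERPINH1, the collagen chaperone HSP47, had log2 signals of 13.61, 13.79 and 13.66 with shLSD1 #1, 13.65, 13.85 and 13.86 with shLSD1 #2, and 14.60, 14.75 and 14.73 in control. Its log2 change was -1.0 ± 0.114 with shLSD1 #1 (adjusted p = 0.000398) and -0.90 ± 0.114 with shLSD1 #2 (adjusted p = 0.000778).

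PCOLCE, which speeds removal of the procollagen C-propeptide, changed by -1.17 and -1.04 log2 units with shLSD1 #1 and shLSD1 #2. PLOD2, the lysyl hydroxylase of collagen telopeptides, changed by -0.92 and -1.05, and P4HA2, a catalytic subunit of prolyl 4-hydroxylase, by -0.90 and -0.80. All 4 of these maturation genes had non-overlapping hairpin and control arrays. With the spike-in class as a covariate the shLSD1 #1 changes were -0.91 for PLOD2 and -1.04 for P4HA2, and both calls ended (adjusted p = 0.0879 and 0.0506).

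In the crosslinking list, 2 of 6 genes fell with shLSD1 #1 and 1 with shLSD1 #2, none rose, and the list median was -0.11 and 0.07. Over all clusters 7.94% and 6.63% were lower. LOX, which oxidises lysines to start crosslinks, was above background on all 3 control arrays and no hairpin array, and its signal was at least 1.52-fold lower with shLSD1 #1 (adjusted p = 0.00623). With shLSD1 #2 LOX did not pass (adjusted p = 0.0594). It passed under 4 of 18 alternatives, among them omission of shLSD1 #1 replicate 6 (0.0111). TGM2, a transglutaminase, changed by -0.48 and -0.53. Among the high spike-in arrays alone, TGM2 no longer passed with shLSD1 #2 (-0.52, adjusted p = 0.0570).

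In the list of collagen receptors, 2 of 11 genes fell and 1 rose with shLSD1 #1, and 3 fell and 1 rose with shLSD1 #2, with medians of -0.04 and -0.11. These counts stand beside 15.8% and 13.2% called over all clusters, and 28.6% and 24% over those above background on all 9 arrays. ITGA2, the α2 integrin chain that binds collagen, changed by -0.76 and -0.80, and DDR2, a receptor kinase for fibrillar collagen, by -0.58 and -0.53. Among the high spike-in arrays the shLSD1 #2 change of DDR2 was -0.54 and its call ended (adjusted p = 0.0515). DDR1, its relative in epithelial cells, rose by 0.52 and 0.44 (adjusted p = 0.0221 and 0.0479), and its shLSD1 #2 call passed under 5 of 18 alternatives. That call was lost without any control or shLSD1 #2 replicate or shLSD1 #1 replicate 4 (adjusted p up to 0.150), and its shLSD1 #1 call without control replicate 1 or 2 or shLSD1 #1 replicate 4 or 6 (up to 0.0764). MRC2, an endocytic receptor that takes up collagen, changed by -1.0 with shLSD1 #2 (adjusted p = 0.0140), and its -0.69 with shLSD1 #1 did not pass (adjusted p = 0.0568). Omission of control replicate 2 ended the shLSD1 #2 call of MRC2 (0.0523), as did the restriction to high spike-in arrays (-0.81, adjusted p = 0.0695). Omission of shLSD1 #2 replicate 8 brought the shLSD1 #1 change of MRC2 past the threshold (0.0409).

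The degradation list of proteases and their inhibitors had 3 of 16 genes higher and 4 lower with shLSD1 #1, and 2 higher and 6 lower with shLSD1 #2. Over all clusters 15.8% and 13.2% were called, and 28.6% and 24% over those above background on all 9 arrays. In this list 8 of the 16 genes were above background on all 9 arrays. Of the genes called, 3 and 2 were below background on all 9 arrays. Those below background were MMP1 and MMP9, lower with both hairpins, and MMP13, higher with shLSD1 #1. The medians of the list were -0.20 and -0.17. TIMP3, a matrix-bound inhibitor of metalloproteinases, had log2 signals of 13.31, 13.40 and 13.23 with shLSD1 #1, 13.34, 13.34 and 13.34 with shLSD1 #2, and 11.43, 11.42 and 11.51 in control. It rose by 1.86 ± 0.101 and 1.89 ± 0.101 log2 units (adjusted p = 5.03e-06 and 4.40e-06). TIMP1, a secreted inhibitor of the same family, changed the other way, by -1.14 and -1.05. The lysosomal protease CTSL changed by -1.17 and -1.33, and the membrane metalloproteinase MMP16 rose by 1.05 and 1.13.

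The list of other matrix proteins that associate with fibrils or basement membranes had 4 of 28 genes higher and 4 lower with shLSD1 #1, and 4 higher and 7 lower with shLSD1 #2, with medians of 0.16 and 0.06. The call rates were 15.8% and 13.2% over all clusters and 28.6% and 24% over those above background on all 9 arrays. LUM, the small proteoglycan lumican that regulates fibril assembly, had log2 signals of 9.29, 9.64 and 9.82 with shLSD1 #1, 9.64, 9.71 and 9.46 with shLSD1 #2, and 7.68, 7.42 and 7.07 in control, where 1 array was above background. POSTN, which encodes the matrix protein periostin, rose by 1.68 and 1.61. NID1, which links laminin to collagen IV, rose by 1.21 and 1.2, and LUM by 2.19 and 2.21. FN1, fibronectin, on which collagen fibrils assemble, changed by -0.68 and -1.27, and its shLSD1 #1 call was lost without control replicate 1 or shLSD1 #1 replicate 4 or 6 (adjusted p = 0.0508, 0.0595 and 0.0546).

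**Figure D4:**
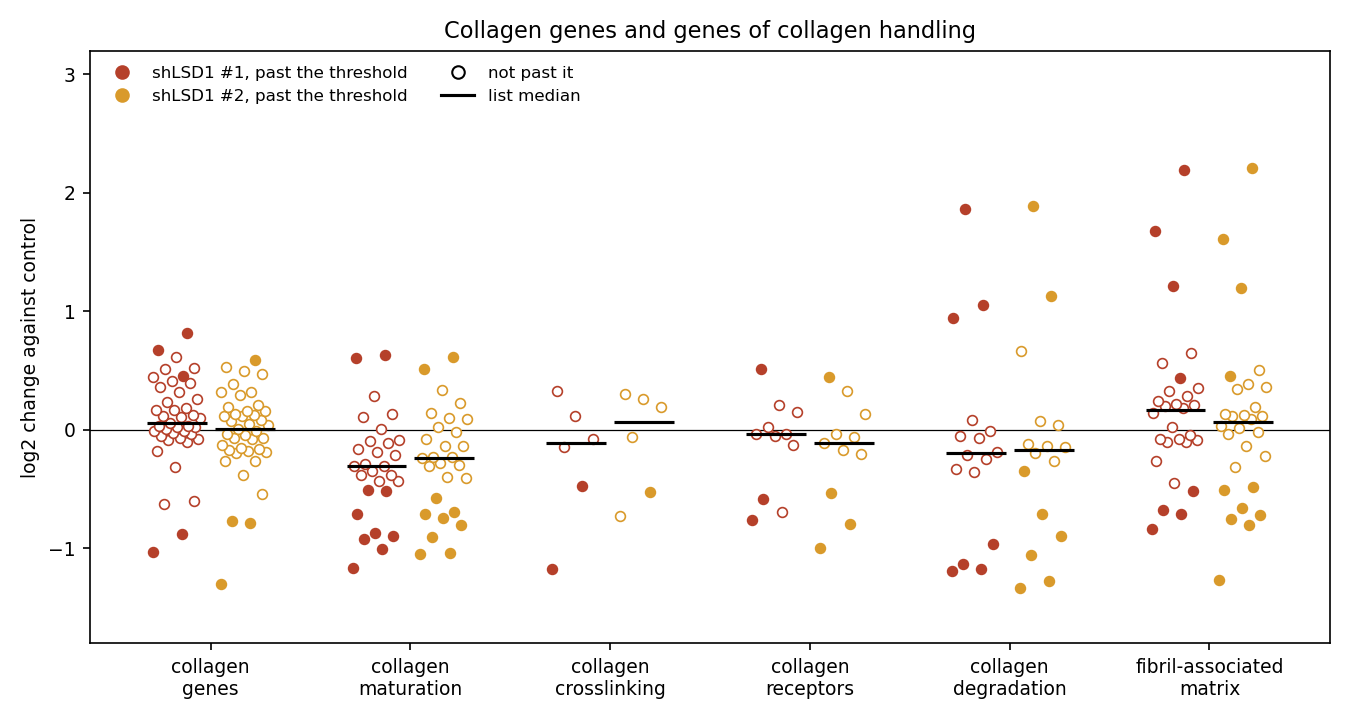
Log2 change against control for every gene of the collagen set and of the 5 related lists, with shLSD1 #1 on the left of each pair and shLSD1 #2 on the right. Filled points passed the adjusted threshold and black bars are medians. The maturation medians lie at -0.30 and -0.24, and the highest points among the matrix genes are LUM at 2.19 and 2.21.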

How the data were processed

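RNA of 9 cell samples was hybridised to Clariom S arrays, with 100 ng of total RNA labelled per array, per the labels. The authors deposited log2 signals, 1 per transcript cluster; Affymetrix Expression Console 1.4 and RMA, a multi-array summary, are named in the submitters' processing notes. The log base was taken as 2. The 2903 control rows were set aside and all 21448 other clusters were tested unfiltered. Symbols came from the platform annotation, and all 41 collagen symbols matched RefSeq by gene ID.

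One fit of the 3 groups was made with limma 3.58.1 in R 4.3.3 (lmFit, eBayes without trend), two-sided, with Benjamini-Hochberg adjustment over all clusters; it was tested on simulated data. A group below the negative controls on all its arrays was set to its negative control percentiles for a lower-bound fold. Collagen genes given array by array were, by rule, those called and above background on all arrays of at least 1 group, and those above background on all 9 arrays. COL6A3, COL1A1, COL4A2, COL4A5 and COL18A1 fall outside that rule and were added after their values were seen. From each related list the rule took up to 4 called genes of largest change that were above background in at least 1 group, plus FN1 and SERPINH1. The members, the lists and the alternatives were chosen with earlier results of these data known. Alternatives were 3 normalizations, a filter, a robust trended prior, weighted arrays, fits of the compared groups alone, omission of each array, and the spike-in class. The number of arrays limits the precision. Plots were drawn with matplotlib 3.10.9.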

Additional observations from a re-analysis of the deposited data

How the results depend on the processing

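The count of collagen genes called with shLSD1 #1 was 5 and ran from 4 to 8 when each array was left out. The count with shLSD1 #2 was 4 and ran from 2 to 5, and that between the hairpins was 0 throughout, by limma. With the spike-in class as a covariate, 0 genes passed with shLSD1 #1 (4 at an unadjusted p under 0.05) and 2 with shLSD1 #2, and 2 passed with shLSD1 #2 among arrays of the high class. In both of these fits replicate 8 does not enter the shLSD1 #2 change. In that covariate fit the error for shLSD1 #1 grows because all its arrays are of the low class and all control arrays of the high class: for COL1A2 the change was 0.84 ± 0.260, against 0.82 ± 0.137 without the covariate. Under the normalizations, filter, prior, array weights and compared-groups fits, both counts stayed within 1.5 times the reported ones. Among the called collagen genes and the related-list genes taken by the rule, no called change reversed its sign under any alternative. FAP, THY1, MSLN, WT1, UPK3B, MMP1, MMP9 and MMP13 were not put through the alternatives. The shLSD1 #1 calls of 7 further genes ended with the class as a covariate. The changes with and without it were -0.82 and -0.76 for ITGA2 (adjusted p = 0.0926 with it), -0.62 and -0.58 for DDR2 (0.148), -0.45 and -0.48 for TGM2 (0.307), -0.97 and -1.14 for TIMP1 (0.0761) and -0.99 and -1.17 for LOX (0.312). The changes of FN1, -0.31 and -0.68 (0.644), and DDR1, 0.31 and 0.52 (0.597), differed by more than 1.5 times. The covariate shifts a shLSD1 #1 change by the difference of shLSD1 #2 replicate 8 from the other arrays of that hairpin. FN1 had a log2 signal of 11.10 on replicate 8, against 11.47 and 11.48 on those arrays. DDR1 had 10.28 against 10.08 and 10.06. Whether these differences go with the spike-in class was not tested. Across the settings run, the median change of all clusters was at most 0.042 in size. Taking the cluster of lowest mean per gene was not run because each collagen gene had 1 cluster. No paired analysis was possible because the groups share no replicate number. COL6A1 and COL6A2 signals on hairpin arrays lie close to the negative controls, which limits how far a fall can be measured.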
